A study of Rattus norvegicus with 12 samples.

Results

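Oxygenated cold perfusion was compared with plain cold storage in rat livers that had spent the same total time out of the body. All livers came from male SD rats aged 6 to 8 weeks and had 30 min of warm ischemia in the body after cardiac arrest, a model of donation after circulatory death. In the SCS 4 h group the liver then lay for 4 h in cold HTK preservation solution (static cold storage). In the HOPE 1 h group it lay there for 3 h and was then perfused for 1 h through the portal vein with cold, oxygenated HTK solution (hypothermic oxygenated perfusion). Each group held 3 livers with 1 RNA-seq library each, so 6 of the 12 livers of the series made up the comparison. The other 6 livers entered the same model: 3 taken after warm ischemia alone (WI 30 min) and 3 with 3 h of storage and 1 h of cold perfusion without oxygenation (HMP 1 h). Liver tissue was sampled once preservation ended and no liver had yet been rewarmed by perfusion. All genes of the table were eligible, and 13687 of 33744 had enough counts to be tested.

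In a liver without blood flow, electrons back up in the respiratory chain of the mitochondria and ATP falls, and oxygen given in the cold lets the chain run again before the graft is rewarmed. The chain is built from a few subunits encoded by mitochondrial DNA, transcribed inside the organelle, and many more encoded in the nucleus. Interferon-stimulated genes, which carry antiviral and nucleic acid sensing functions, and heat shock chaperones, which refold proteins, are among the gene groups known to respond to stress in the liver.

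The libraries held 15592012 to 17167688 counts in SCS 4 h and 17582521 to 18343167 counts in HOPE 1 h. Alb, which encodes albumin and marks hepatocytes, was the most abundant transcript in all 6 livers. HOPE 1 h liver 3 had high levels of the markers of several other liver cell types, which are given below beside the groups they move with. Nothing in the labels states that the 3 libraries of a group came from 3 separate rats, so p-values measure the spread between these samples. In bulk tissue, fewer cells of a type and less RNA per cell cannot be told apart.

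No gene passed an adjusted p of 0.05 in edgeR's quasi-likelihood test between HOPE 1 h and SCS 4 h (0 of 13687; lowest adjusted p 0.268). At an unadjusted p under 0.05 there were 1489 genes (10.9% of those tested, where 684 would be expected by chance), 553 higher in HOPE 1 h (4.04%) and 936 lower (6.84%). DESeq2 on the same counts gave an adjusted p under 0.05 to 204 of the 7581 genes for which it returned one (2.69%), 28 higher (0.369%) and 176 lower (2.32%). The 3 livers of each group did not overlap at 2634 genes (19.2%), 1228 with all HOPE 1 h livers higher (8.97%) and 1406 with all lower (10.3%). Fold changes below are log2 values of HOPE 1 h minus SCS 4 h with their standard error (SE), levels are CPM (the count in each liver scaled to a common library size after TMM normalization), and "called" refers to DESeq2 unless edgeR is named. The median fold change over all tested genes was 0.04, and 55.1% of them had a positive and 44.9% a negative value. These shares over all genes are the background for the counts of every list below.

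**Figure D1:**
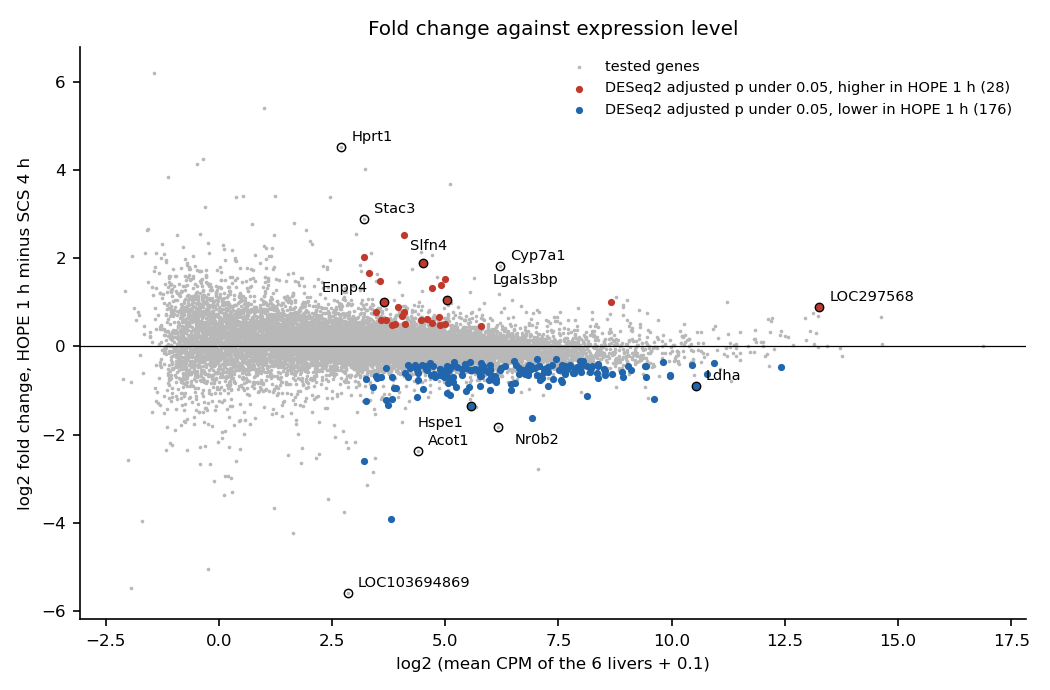
Each point is 1 of the 13687 tested genes, with its mean level in the 6 livers on the x axis (log2 of CPM plus 0.1) and its edgeR log2 fold change on the y axis. Red and blue mark the 28 genes called higher and the 176 called lower by DESeq2; most of the genes called lower sit within 1 log2 unit of 0, and the circled genes are described in the text.

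The largest difference between non-overlapping groups on the higher side belonged to Hprt1, the purine salvage enzyme hypoxanthine-guanine phosphoribosyltransferase, often taken as a reference gene (chromosome X, 158197149 to 158228749, minus strand, Rnor_6.0). Its level was 0.28, 0.54 and 0.79 CPM in the SCS 4 h livers and 19.7, 8.83 and 8.39 CPM in the HOPE 1 h livers, from 5, 9 and 12 counts against 346, 149 and 160. The fold change was 4.52 ± 0.86 (SE; edgeR adjusted p = 0.268). The WI 30 min livers had 0.24 to 0.34 CPM and the HMP 1 h livers 0.46, 5.81 and 10.5 CPM, so 1 perfused liver without oxygenation resembled the stored livers and the other two resembled HOPE 1 h. The table lists a second gene with the same product on the same chromosome, LOC103689983 (158623240 to 158655198), and reads from near-identical copies can be assigned to either. With both genes added together, the level was 1.12, 1.2 and 1.24 CPM in SCS 4 h and 21.5, 17.8 and 9.02 CPM in HOPE 1 h, a ratio of 13.6 between the means. The 2 genes together were therefore still apart by group, although less widely than Hprt1 alone.

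Other large differences sat on genes with copies or unusual annotation. LOC103694869, annotated as isochorismatase domain-containing protein 1, had 23.2, 0.48 and 18.1 CPM in SCS 4 h and 0.28, 0.30 and 0.26 CPM in HOPE 1 h. Its fold change of -5.59 ± 1.08 (SE) rested on SCS 4 h livers 1 and 3, while liver 2 was close to the HOPE 1 h level. LOC100911417, annotated as an ATP synthase subunit b-like gene, had 41.2, 35.3 and 1.64 CPM in SCS 4 h against 1.65, 1.24 and 2.26 CPM in HOPE 1 h, and the groups overlapped. Adding its copy Atp5pb gave 44.6, 38.1 and 16.8 CPM against 5.92, 3.44 and 5.19 CPM, and the groups no longer overlapped. LOC100910882, an RNA-binding protein 39-like gene, had a fold change of -2.31 ± 0.54 (SE) with no overlap. Together with Rbm39 it had 28.9, 20.8 and 38.3 CPM in SCS 4 h and 5.58, 36.9 and 21.8 CPM in HOPE 1 h, so the separation was lost. How reads were divided between such copies is unknown here, so the values of each copy alone are uncertain.

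Stac3, an adaptor of muscle excitation-contraction coupling, had 1.85, 2.53 and 2.16 CPM in SCS 4 h and 22.7, 13.3 and 12.3 CPM in HOPE 1 h (fold change 2.88 ± 0.99 SE, edgeR adjusted p = 0.335). Its 2 groups were tight and far apart, but the HMP 1 h livers had 12.1, 127 and 92.4 CPM and WI 30 min liver 3 had 20.2 CPM. Fitted on the 6 livers alone, Stac3 was called by edgeR (adjusted p = 0.0441), as were Hprt1, Adcy10 (-1.23 in that fit, the bicarbonate-sensitive adenylate cyclase), the pseudogene AABR07058831.1 (2.64) and a transcript with no symbol on chromosome 8 (-1.61). Tex49, a testis-expressed gene, had 4.09, 6.86 and 4.65 CPM in SCS 4 h and 1.31, 1.24 and 1.36 CPM in HOPE 1 h (-1.99 ± 0.38 SE). Slc12a3, the thiazide-sensitive sodium chloride cotransporter, had 1.51, 2.89 and 1.96 CPM against 5.3, 10.5 and 6.66 CPM (1.81 ± 0.67 SE). Neither group overlapped with the other in these 2 genes, which stood at low levels in both.

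Among genes called higher, Enpp4, a membrane phosphodiesterase that hydrolyses dinucleotides, had the lowest DESeq2 adjusted p, 0.000102. Its level was 7.85, 8.91 and 8.12 CPM in SCS 4 h and 15.4, 15.4 and 19.0 CPM in HOPE 1 h, a fold change of 1.00 ± 0.15 (SE). Every HOPE 1 h liver stood above every SCS 4 h liver, and the WI 30 min livers (8.44 to 9.19 CPM) lay with the stored ones. LOC297568, alpha-1-inhibitor III, a plasma protease inhibitor of the rat, was the most abundant transcript called higher, with 5937, 5937 and 8535 CPM against 13340, 13100 and 11540 CPM (fold change 0.90 ± 0.25 SE). Cad, which catalyses the opening steps of pyrimidine synthesis, had 25.5, 21.3 and 20.3 CPM against 37.6, 36.4 and 33.1 CPM (0.68 ± 0.16 SE). Cad was also higher in HOPE 1 h than in HMP 1 h, where its level was 20.4, 19.6 and 22.7 CPM (fold change 0.77, edgeR adjusted p = 0.558). Heatr5a, a HEAT repeat protein, was higher by 0.60 ± 0.14 (SE) and Adam11, a member of the ADAM family, by 2.02 ± 0.57 (SE), although HOPE 1 h liver 3 (5.09 CPM) was close to the top of SCS 4 h (4.76 CPM) for Adam11, whose fold change was 1.2 without HOPE 1 h liver 1.

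Among genes called lower, Gaa, the lysosomal acid alpha-glucosidase, had the lowest DESeq2 adjusted p (0.000102). Gaa had 131, 128 and 137 CPM in SCS 4 h and 91.5, 78.4 and 85.8 CPM in HOPE 1 h (-0.63 ± 0.11 SE). The gap between its groups was several times the spread within them. Ldha, lactate dehydrogenase A, had 2138, 1692 and 1939 CPM against 1055, 1047 and 977 CPM (-0.91 ± 0.19 SE), and Nup62, a nuclear pore protein, had a fold change of -0.99 ± 0.19 (SE). The HMP 1 h livers had 872 to 1017 CPM of Ldha, close to HOPE 1 h, and the WI 30 min livers had 1328 to 2218 CPM.

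**Figure D2:**
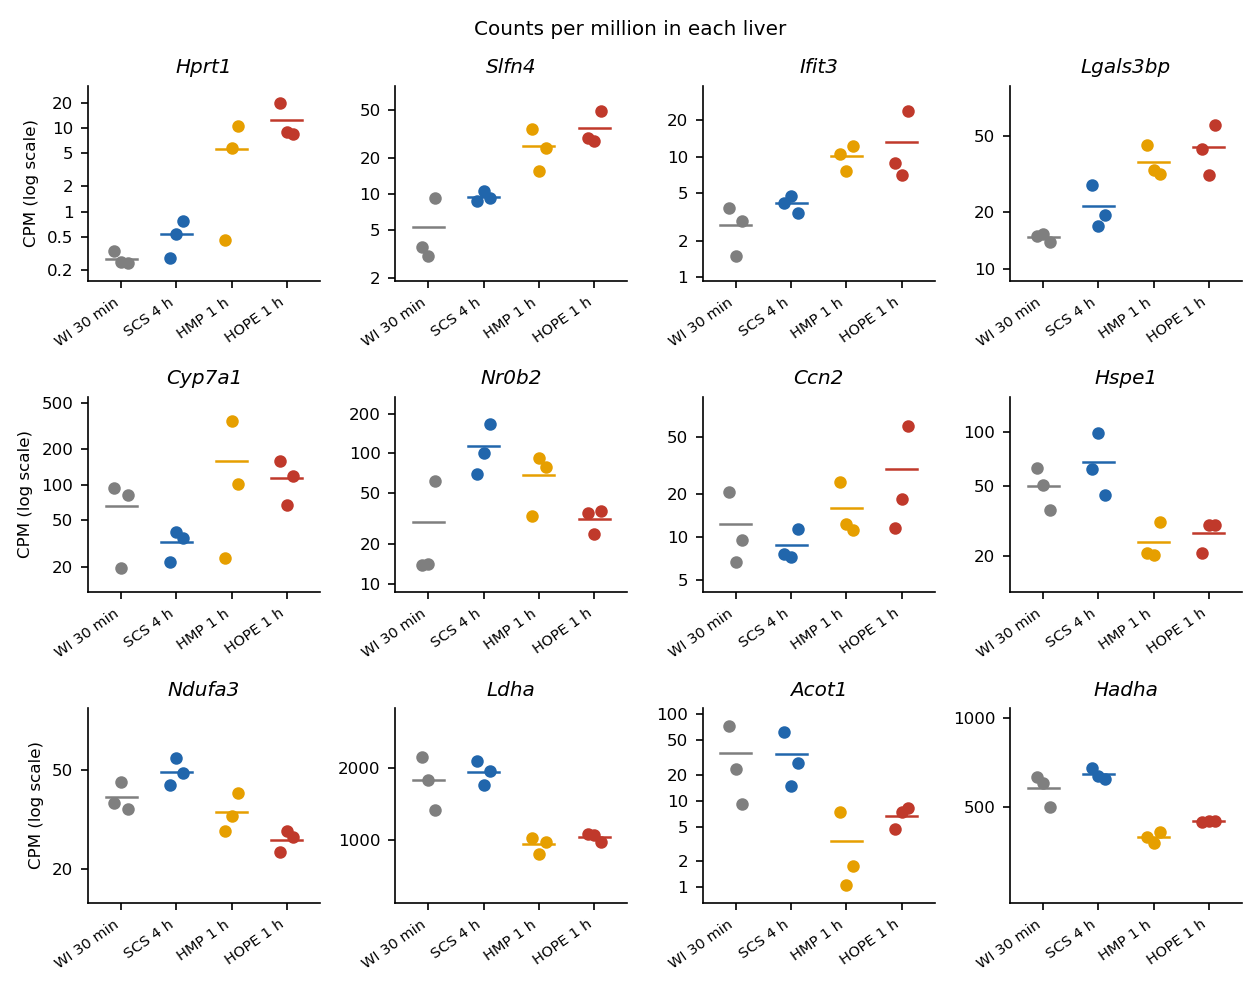
Levels (CPM) of 12 genes in each of the 12 livers, on a log scale, with 1 point per liver and a bar at the mean of each group of 3. The blue (SCS 4 h) and red (HOPE 1 h) points do not overlap in any panel, while the orange points (HMP 1 h) lie with the red ones for genes such as Ldha and Hspe1 and spread widely for Hprt1 and Cyp7a1.

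The 2 genomes that encode the respiratory chain differed in opposite directions. All 77 tested nuclear genes for subunits of complexes I to IV and ATP synthase had a negative fold change, against 44.9% of all genes, with a median of -0.45. At an unadjusted p under 0.05, 59 of them were lower (76.6%, against 6.84% of all genes), and 60 did not overlap between groups (77.9%, against 10.3%). DESeq2 called 25 of them lower, against 2.32% of all the genes it tested. All 13 protein-coding mRNAs of mitochondrial DNA had a positive fold change, against 55.1% of all genes, with a median of 0.70. Of these, 2 were higher at an unadjusted p under 0.05 (15.4%, against 4.04% of all genes). At 8 the groups did not overlap (61.5%, against 8.97%), and 0 of the 12 that DESeq2 tested were called (against 0.369% called higher of all genes).

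Complex I takes electrons from NADH, and 35 of its nuclear subunits were tested (median -0.46, 29 lower at an unadjusted p under 0.05, 16 called). Ndufa3, an accessory subunit of the membrane arm, had 43.6, 55.9 and 48.8 CPM in SCS 4 h and 23.4, 28.4 and 26.9 CPM in HOPE 1 h (-0.91 ± 0.16 SE, DESeq2 adjusted p = 0.00045). Ndufb7 had 78.9, 82.5 and 74.8 CPM against 44.1, 52.0 and 54.6 CPM (-0.65 ± 0.13 SE), and Ndufs4, an accessory subunit of the matrix arm, had 38.4, 41.3 and 38.9 CPM against 26.8, 25.8 and 27.8 CPM (-0.56 ± 0.13 SE). For these subunits the 3 HOPE 1 h livers were close together and below all 3 SCS 4 h livers. Complexes II and III had a median of -0.43 over 14 genes with 2 called, among them Uqcrc1, a core subunit (-0.42 ± 0.12 SE). Complex IV had a median of -0.34 over 13 genes with 3 called, led by Cox4i1 (-0.45 ± 0.13 SE). ATP synthase had a median of -0.42 over 15 genes with 4 called, led by Atp5me, a small membrane subunit, at 37.3, 67.3 and 35.8 CPM against 19.4, 24.1 and 22.3 CPM (-1.09 ± 0.21 SE). Without a given liver of either group the complex I median ranged from -0.55 to -0.44.

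Of the mitochondrially encoded genes, ND5, a core complex I subunit, had 1357, 1371 and 2059 CPM in SCS 4 h and 2847, 3545 and 3223 CPM in HOPE 1 h (1.01 ± 0.35 SE, edgeR adjusted p = 0.344). ND6, the complex I subunit encoded on the other strand, had 312, 248 and 435 CPM against 601, 657 and 645 CPM (0.94 ± 0.36 SE, edgeR adjusted p = 0.378). Mitochondrial DNA supplied 5.07 to 6.02% of all counts in SCS 4 h and 6.56 to 10.2% in HOPE 1 h, a difference of 3.22 percentage points with no overlap. The exact two-sided permutation test gave p = 0.1, the smallest that 3 livers against 3 can give. The WI 30 min livers had 5.07 to 5.77%, and among the HMP 1 h livers 1 had 18.7% and the other two 4.79 and 5.27%.

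Against the remaining groups, nuclear complex I genes were higher in SCS 4 h than in WI 30 min (35 of 35, median 0.29) and a little lower in HOPE 1 h than in WI 30 min (median -0.17). HMP 1 h against SCS 4 h, which shares the SCS 4 h livers with the present comparison, gave a complex I median of -0.40. Between HOPE 1 h and HMP 1 h the complex I median was -0.07. Over all genes edgeR called 0 between HOPE 1 h and HMP 1 h (lowest adjusted p 0.558), with 1024 at an unadjusted p under 0.05 (7.48%).

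**Figure D3:**
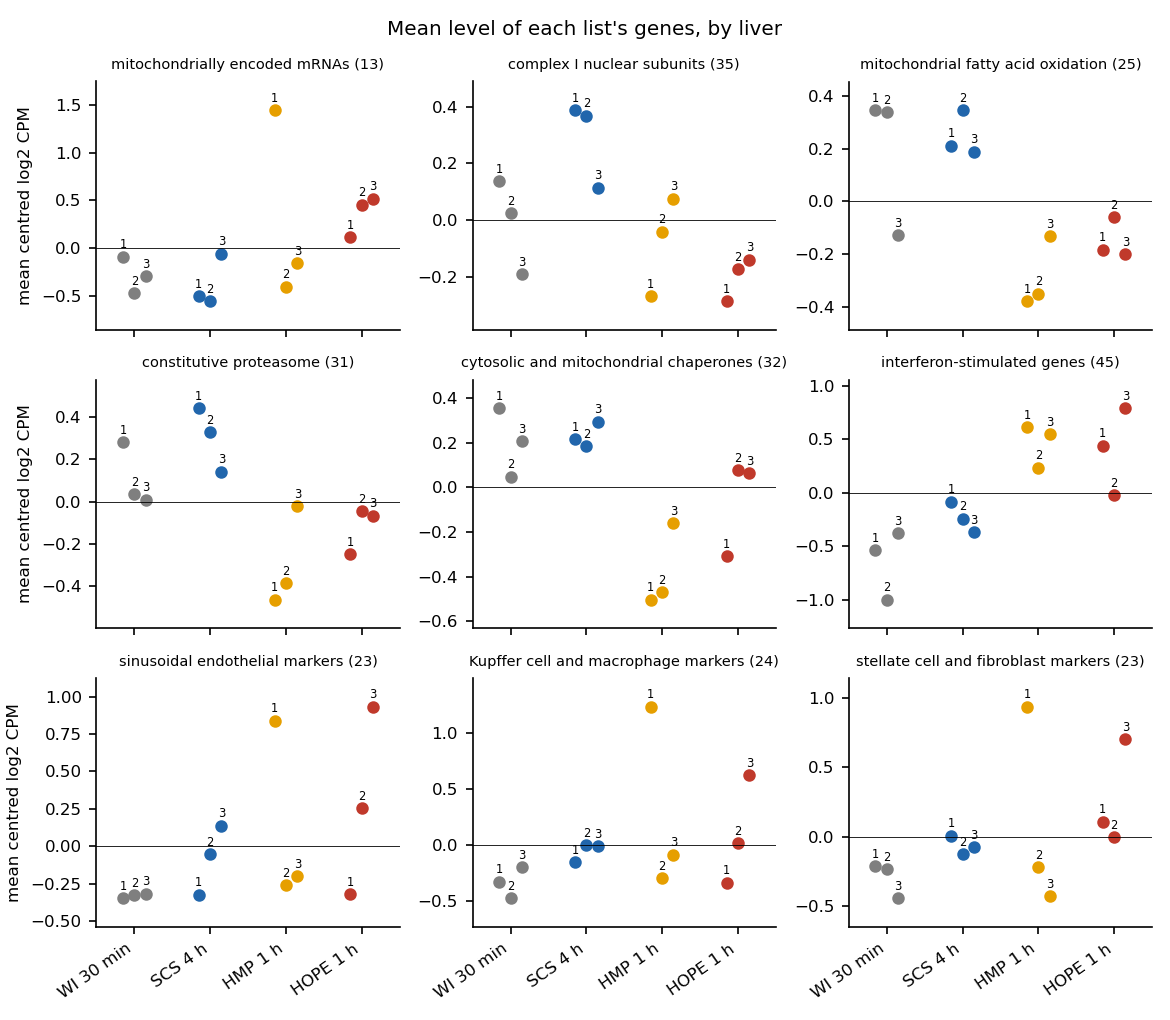
Mean level of the genes of 9 lists in each liver (mean of log2 CPM centred on the 12 livers; number of genes in brackets; the small figure beside a point is the liver's number). Complex I, fatty acid oxidation and proteasome genes are lower in all 3 HOPE 1 h livers (red) than in all 3 SCS 4 h livers (blue), mitochondrially encoded mRNAs are higher, and HOPE 1 h liver 3 and HMP 1 h liver 1 stand high for the markers of non-parenchymal cells.

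Gene length moved with the fold change and has to be read beside these lists. With the tested genes divided by length into 5 classes of about equal size, the median fold change was -0.13 in the shortest (up to 1301 bases), then -0.03, 0.04 and 0.09, and 0.15 in the longest (from 4003 bases). In the shortest class 14.5% of genes were lower at an unadjusted p under 0.05, against 1.5% in the longest. Most respiratory chain genes are short: 62 of the 77 lay in the shortest class, with a median fold change of -0.46, below the -0.13 of that class as a whole. After a correction for the length trend in each liver the medians were -0.34 for complex I, -0.27 for complexes II and III, -0.24 for complex IV and -0.34 for ATP synthase, and 25 of the 35 complex I genes were still lower at an unadjusted p under 0.05. What the length trend itself comes from was not tested.

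**Figure D4:**
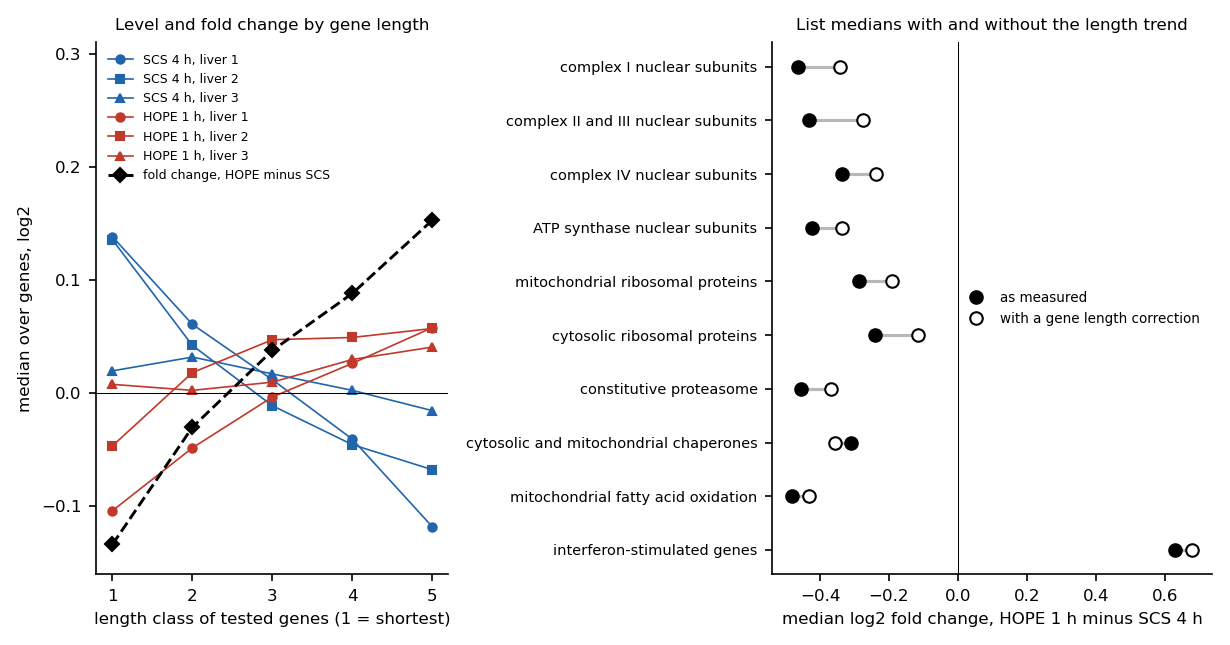
Left, the median over genes in each of 5 length classes of the centred log2 CPM of each SCS 4 h (blue) and HOPE 1 h (red) liver, and of the log2 fold change (black, dashed), which goes from -0.13 in the shortest class to 0.15 in the longest. Right, the median log2 fold change of 10 lists as measured (filled) and after the gene length correction (open); the ribosomal lists move closest to 0, at -0.12 and -0.19, while fatty acid oxidation and chaperones change little.

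Genes of fatty acid oxidation in mitochondria mostly had negative fold changes. Of 25 tested genes, 24 had a negative fold change (median -0.48). At an unadjusted p under 0.05, 14 were lower (56%, against 6.84% of all genes). All HOPE 1 h livers were lower at 15 (60%, against 10.3%). Of the 24 that DESeq2 tested, 10 were called lower (against 2.32% of all genes). Hadha, the alpha subunit of the trifunctional protein, had 678, 639 and 621 CPM in SCS 4 h and 444, 448 and 446 CPM in HOPE 1 h (-0.53 ± 0.12 SE, DESeq2 adjusted p = 0.000704). Acads, which opens the oxidation of short-chain acyl-CoA, had 253, 245 and 233 CPM against 173, 179 and 166 CPM (-0.50 ± 0.11 SE), and Acadvl, its very-long-chain relative, had 464, 457 and 404 CPM against 273, 324 and 306 CPM (-0.55 ± 0.14 SE). The electron transfer flavoprotein that passes their electrons on was also called lower (Etfa, -0.45 ± 0.12 SE). These genes are longer than the respiratory chain genes, and the median of the list was -0.43 after the length correction. Cpt1b, the muscle form of the carnitine palmitoyltransferase that admits fatty acids, had a fold change of -1.25 ± 0.51 (SE) with no overlap. Over the 25 genes of the list, the median of HMP 1 h minus SCS 4 h was -0.53, with the same SCS 4 h livers. The median of HOPE 1 h minus HMP 1 h was 0.08, with 19 of 25 genes positive.

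Peroxisomal and omega oxidation had a median of -0.27 over 26 genes. At an unadjusted p under 0.05, 9 were lower (34.6%, against 6.84% of all genes) and 1 was higher. Of the 23 that DESeq2 tested, 3 were called lower (Acaa1a, Ehhadh and the transporter Abcd3), against 2.32% of all genes. Ehhadh, the peroxisomal bifunctional enzyme, had 1368, 1013 and 883 CPM in SCS 4 h and 491, 408 and 537 CPM in HOPE 1 h (-1.19 ± 0.36 SE). Acaa1a, the peroxisomal thiolase, had a fold change of -0.69 ± 0.17 (SE) and Cyp4a1, a fatty acid omega-hydroxylase, by -0.68 ± 0.21 (SE). Acot1, a cytosolic acyl-CoA thioesterase, had 62.6, 14.8 and 27.4 CPM against 4.67, 7.41 and 8.13 CPM (-2.37 ± 0.81 SE), with a wide spread among the stored livers. These 4 genes are known targets of the fatty acid sensor PPAR-alpha. Among ketone body and fasting lipid genes, Acat1, a mitochondrial thiolase (-0.65 ± 0.19 SE), and Fabp1, the liver fatty acid binding protein (-0.62 ± 0.19 SE), were called lower. The tricarboxylic acid cycle had a median of -0.15 over 23 genes, or -0.25 without HOPE 1 h liver 2 and -0.10 without HOPE 1 h liver 3. Of the 23, 3 were called lower (against 2.32% of all genes): Idh3B, Suclg1 and Mdh2 at -0.49, -0.47 and -0.47.

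**Figure D5:**
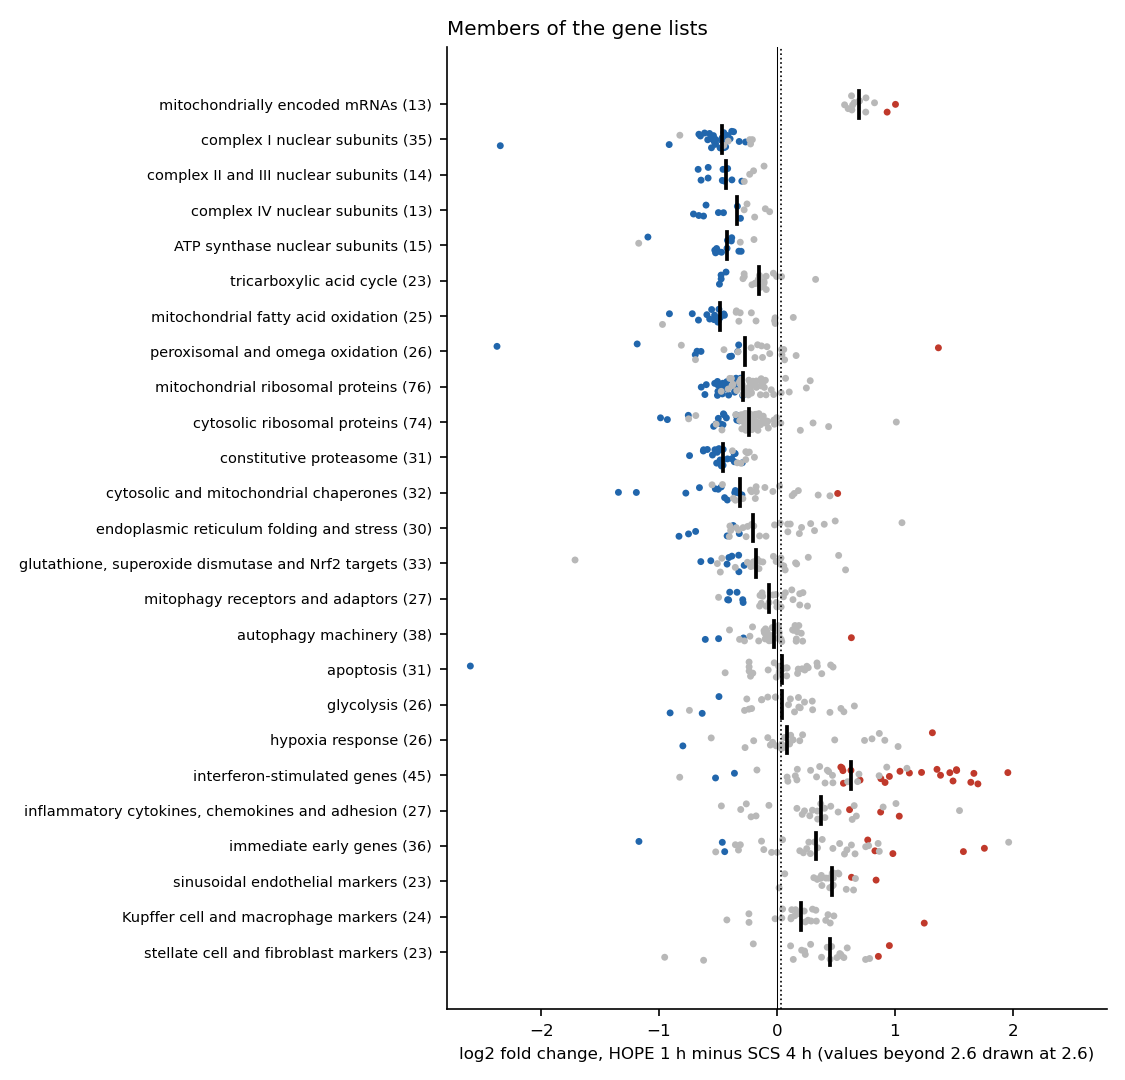
Log2 fold change, HOPE 1 h minus SCS 4 h, of every tested member of 25 gene lists (number of members in brackets; 1 value past the left edge is drawn there); red and blue mark members higher and lower at an unadjusted edgeR p under 0.05, the black bar is the list's median and the dotted line the median of all genes (0.04). The proteasome, fatty acid oxidation and respiratory chain lists lie almost wholly to the left, and mitochondrially encoded mRNAs and most interferon-stimulated genes to the right.

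The proteasome and the ribosomes were described as separate lists. All 31 tested genes of the constitutive proteasome, the complex that degrades ubiquitin-tagged proteins, had a negative fold change (median -0.45). At an unadjusted p under 0.05, 23 were lower (74.2%, against 6.84% of all genes). All HOPE 1 h livers were lower at 23 (74.2%, against 10.3%), and 5 of the 31 were called lower (against 2.32% of all genes). Psmb5, its chymotrypsin-like catalytic subunit, had 95.8, 92.1 and 72.5 CPM in SCS 4 h and 43.2, 53.8 and 58.8 CPM in HOPE 1 h (-0.74 ± 0.18 SE). Psmd3 and Psmc2, of the regulatory particle, had fold changes of -0.46 ± 0.12 (SE) and -0.48 ± 0.13 (SE). The immunoproteasome and antigen loading genes had no such pattern (20 tested, median 0.12, or -0.20 without HOPE 1 h liver 3, 0 called by edgeR or DESeq2 and 0 at an unadjusted p under 0.05). For the constitutive proteasome, the median of HMP 1 h minus SCS 4 h was -0.59, with the same SCS 4 h livers. The median of HOPE 1 h minus HMP 1 h was 0.12 there, with 29 of 31 genes positive. Mitochondrial ribosomal proteins had a median of -0.29 over 76 genes. At an unadjusted p under 0.05, 27 were lower (35.5%, against 6.84% of all genes) and 0 higher. Of the 69 that DESeq2 tested, 8 were called lower (against 2.32% of all genes). Cytosolic ribosomal proteins had a median of -0.24 over 74 genes (69 negative). At an unadjusted p under 0.05, 16 were lower (21.6%, against 6.84% of all genes) and 0 higher. All HOPE 1 h livers were lower at 30 (40.5%, against 10.3%). DESeq2 called 2 of 73 lower, a share near the 2.32% of all genes. After the length correction the medians were -0.19 for mitochondrial and -0.12 for cytosolic ribosomal proteins.

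Chaperones of the cytosol and mitochondria mostly had negative fold changes (25 of 32, median -0.31). At an unadjusted p under 0.05, 13 were lower (40.6%, against 6.84% of all genes) and 1 was higher (3.1%, against 4.04%). Of the 29 that DESeq2 tested, 3 were called lower (against 2.32% of all genes) and 1 higher (against 0.369%). Hspe1, the mitochondrial co-chaperonin, had 62.3, 98.9 and 44.0 CPM in SCS 4 h and 20.7, 30.1 and 29.9 CPM in HOPE 1 h (-1.34 ± 0.30 SE, DESeq2 adjusted p = 0.00485). Its partner Hspd1, the mitochondrial chaperonin, had 603, 544 and 546 CPM against 347, 446 and 406 CPM (-0.50 ± 0.18 SE, edgeR adjusted p = 0.349, not called). Fkbp4, a co-chaperone of Hsp90, had 194, 163 and 160 CPM against 81.9, 114 and 107 CPM (-0.77 ± 0.16 SE), and Hsp90ab1, the constitutive cytosolic Hsp90, had 1211, 1252 and 1190 CPM against 611, 858 and 847 CPM (-0.66 ± 0.18 SE). The group was not uniform: Dnajb4, a heat shock co-chaperone, was called higher, at 13.5, 14.2 and 14.8 CPM against 20.2, 18.6 and 21.9 CPM (0.52 ± 0.13 SE). HMP 1 h livers 1 and 2 had lower chaperone levels than any HOPE 1 h liver, and the median difference of HOPE 1 h from HMP 1 h was 0.31. In the endoplasmic reticulum (30 genes, median -0.21, or -0.09 without SCS 4 h liver 3) the chaperone partner Sdf2l1 (-0.83 ± 0.14 SE) and the lectin chaperone Calr (-0.69 ± 0.17 SE) were called lower.

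Heat shock genes are bound by heat shock factors at inverted repeats, so the 250 bases before the RefSeq start of each gene (GRCr8) were searched on both strands for the heat shock element GAANNTTCNNGAA (TTCNNGAANNTTC where it is read from the other strand). It was present in 222 of 33469 promoters (0.663%) and in 4 of the 27 chaperone genes with a promoter entry (Hspe1, Hspd1, Hsph1 and Hspa8). Hspe1 and Hspd1 are transcribed away from each other, and the same stretch of chromosome 9 lies in the window of both genes. The stretches below are shown because they carry the element of Hspe1, the chaperone with the lowest fold change, and of Hsph1, which did not pass; capitals mark the element, which occurs in overlapping copies at Hspe1.
Hspe1, GRCr8 chr9:64084237-64084304, plus strand: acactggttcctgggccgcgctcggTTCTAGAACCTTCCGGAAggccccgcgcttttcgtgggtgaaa
Hsph1, GRCr8 chr12:10427307-10427367, plus strand: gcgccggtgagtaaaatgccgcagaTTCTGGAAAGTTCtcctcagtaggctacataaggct
Hsph1, a large Hsp70-related chaperone, had 115, 99.5 and 148 CPM in SCS 4 h and 49.2, 113 and 85.5 CPM in HOPE 1 h (-0.55 ± 0.33 SE, edgeR adjusted p = 0.578). Hspa8, the constitutive Hsp70, had a fold change of -0.37 ± 0.27 (SE, edgeR adjusted p = 0.658), and the groups overlapped in both genes. The 4 genes with the element had a median fold change of -0.52 and the 23 without it -0.33.

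Interferon-stimulated genes mostly had positive fold changes, and fewer passed a test. Of 45 tested, 41 had a positive fold change (median 0.63, against 55.1% positive and a median of 0.04 over all genes). At an unadjusted p under 0.05, 22 were higher and 2 lower (48.9% and 4.44%, against 4.04% and 6.84% of all genes). With no overlap, 16 were higher (35.6%, against 8.97%). Of the 25 that DESeq2 tested, 5 were called higher (against 0.369% of all genes). Lgals3bp, a secreted scavenger-type glycoprotein, had 27.8, 16.8 and 19.3 CPM in SCS 4 h and 43.0, 31.1 and 57.7 CPM in HOPE 1 h (1.04 ± 0.24 SE, DESeq2 adjusted p = 0.0108). Irf7, the transcription factor that amplifies type I interferon production, had 23.8, 12.9 and 12.9 CPM against 37.2, 27.6 and 65.4 CPM (1.39 ± 0.41 SE). Mx1, an antiviral GTPase, had 7.01, 3.79 and 3.21 CPM against 14.3, 7.53 and 22.9 CPM (1.67 ± 0.46 SE), and the highest stored liver came close to the lowest perfused one. Ifit3, an antiviral effector, had 4.15, 4.70 and 3.40 CPM against 8.89, 7.05 and 24.0 CPM (1.71 ± 0.44 SE), and Xaf1, a pro-apoptotic interferon target, had 1.23, 1.32 and 1.5 CPM against 2.39, 4.62 and 5.72 CPM (1.65 ± 0.37 SE). Slfn4, a myeloid schlafen gene outside the list, had 8.80, 10.6 and 9.23 CPM against 29.3, 27.9 and 49.8 CPM (1.90 ± 0.40 SE, DESeq2 adjusted p = 0.00167). HOPE 1 h liver 3 held the highest value of the 6 livers for each of these 6 genes. Without that liver the list's median was 0.37. The markers of sinusoidal endothelium, Kupffer cells and stellate cells were also highest of the 6 livers there, with mean centred log2 levels of 0.93, 0.63 and 0.70, and their part in these values was not tested. The members that went the other way were Ifi35 (-0.36 ± 0.12 SE) and the membrane tether Bst2 (-0.52 ± 0.23 SE) at an unadjusted p under 0.05.

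Against WI 30 min, the list's median difference was 0.35 in SCS 4 h and 0.96 in HOPE 1 h. The HMP 1 h livers lay with HOPE 1 h, at a median difference of 0.08 between those groups. The upstream sensors and signaling genes had a median of 0.12, or 0.00 without HOPE 1 h liver 3 and 0.22 without HOPE 1 h liver 1 (20 tested, 1 higher at an unadjusted p under 0.05, the cytosolic DNA sensor Aim2, and 0 called by either tool). The cytokine, chemokine and adhesion list had a median of 0.37 over 27 genes, 3 of them higher at an unadjusted p under 0.05 and 0 called. Icam1, an endothelial adhesion molecule, had 29.2, 28.1 and 19.3 CPM in SCS 4 h and 44.7, 36.1 and 36.5 CPM in HOPE 1 h (0.62 ± 0.18 SE), and Vcam1 had a fold change of 0.88 ± 0.34 (SE).

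Interferon signaling acts through the interferon-stimulated response element, and the same 250 bases were searched on both strands for GAAANNGAAA. These letters were found in 1140 of 33469 promoters (3.41%) and in 19 of the 32 tested interferon-stimulated genes with a promoter entry (59.4%). The sequences of 4 of the genes described above and of Bst2 are given to show the element where the transcript was higher and where it was lower, each on the gene's own strand with the matching letters in capitals (TTTCNNTTTC where the match lies on the opposite strand).
Xaf1, GRCr8 chr10:57415899-57415934, plus strand: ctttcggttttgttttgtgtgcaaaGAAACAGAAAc
Lgals3bp, GRCr8 chr10:104127864-104127923, minus strand: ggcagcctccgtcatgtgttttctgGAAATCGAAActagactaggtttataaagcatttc
Ifit3, GRCr8 chr1:241527257-241527316, plus strand: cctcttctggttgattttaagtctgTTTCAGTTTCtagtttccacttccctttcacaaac
Irf7, GRCr8 chr1:205800058-205800117, minus strand: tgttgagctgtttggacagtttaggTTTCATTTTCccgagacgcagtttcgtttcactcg
Bst2, GRCr8 chr16:18255058-18255123, minus strand: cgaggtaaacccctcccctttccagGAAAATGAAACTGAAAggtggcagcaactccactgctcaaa
Bst2 carries overlapping matches and was among the members with a negative fold change. The 19 genes with the letters had a median fold change of 0.57 and the 13 without them 0.63. A match describes the sequence of this window alone.

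In bile acid synthesis, 2 functionally linked genes differed in opposite directions. Cyp7a1, the rate-limiting enzyme of bile acid synthesis (chromosome 5, 19358734 to 19368431, Rnor_6.0), had 22.3, 39.7 and 35.5 CPM in SCS 4 h and 159, 67.8 and 119 CPM in HOPE 1 h (1.82 ± 0.78 SE, edgeR adjusted p = 0.423). Nr0b2, the nuclear receptor also called SHP that represses Cyp7a1 (chromosome 5, 151776004 to 151779319), had 69.1, 100 and 169 CPM against 34.6, 24.0 and 36.2 CPM (-1.83 ± 0.57 SE, edgeR adjusted p = 0.2998). In both genes the groups did not overlap, and neither gene was called. For Cyp7a1 the remaining groups spread across both ranges, with 24.2, 348 and 101 CPM in HMP 1 h and 94.9, 19.9 and 81.8 CPM in WI 30 min. For Nr0b2 the HMP 1 h livers had 33.0, 91.5 and 78.7 CPM. The WI 30 min livers had 13.9, 14.2 and 61.1 CPM of Nr0b2, all below the SCS 4 h livers, and HOPE 1 h minus WI 30 min was 0.09. Over the 17 tested bile acid synthesis genes the median was -0.13, or -0.28 without SCS 4 h liver 3 and -0.24 without SCS 4 h liver 1 or HOPE 1 h liver 2, with 1 higher and 4 lower at an unadjusted p under 0.05. Among the transporters, Slc22a7, an organic anion transporter (-0.58 ± 0.15 SE), and Abcb4, the phospholipid pump of the bile canaliculus (318, 270 and 333 CPM against 229, 210 and 176 CPM, -0.58 ± 0.17 SE), were called lower. The main bile salt importer Slc10a1 (0.13 ± 0.20 SE) and exporter Abcb11 (0.08 ± 0.23 SE) had fold changes smaller than their errors.

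Mitophagy, the removal of damaged mitochondria by autophagy, was the process the study set out to follow. Its receptors and adaptors had a median of -0.07 over 27 genes, with 6 lower at an unadjusted p under 0.05 (22.2%, against 6.84% of all genes). Only 1 of the 26 that DESeq2 tested was called lower, where 2.32% of all genes were. Pink1, the kinase that marks damaged mitochondria, had 268, 313 and 250 CPM in SCS 4 h and 195, 286 and 270 CPM in HOPE 1 h (-0.15 ± 0.15 SE, edgeR adjusted p = 0.7604). Sqstm1, the adaptor p62, had 517, 450 and 384 CPM against 438, 371 and 423 CPM (-0.13 ± 0.15 SE), and Map1lc3b, the LC3B coat protein of autophagosomes, had 137, 160 and 180 CPM against 146, 207 and 182 CPM (0.17 ± 0.20 SE). All 3 overlapped between groups. These values are RNA levels, while the study followed LC3-II, P62 and Parkin as proteins. It also used tissue staining, electron microscopy and autophagy inhibitors, which RNA levels do not stand in for. The members that were lower at an unadjusted p under 0.05 included Fkbp8, an outer membrane receptor of LC3 (-0.34 ± 0.11 SE, called), and the prohibitins Phb and Phb2 (-0.41 ± 0.16 and -0.42 ± 0.15 SE). The general autophagy machinery had a median of -0.03 over 38 genes with 0 called by either tool. At an unadjusted p under 0.05, 1 was higher (Wipi1, 0.63 ± 0.22 SE) and 3 were lower (Ctsd, Ctsb and Map1lc3a). These shares, 2.63% and 7.9%, were near the 4.04% and 6.84% of all genes.

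Genes that shape mitochondria were counted as a list of their own. The fusion, fission and cristae list had a median of -0.19 over 28 genes. At an unadjusted p under 0.05, 10 were lower (35.7%, against 6.84% of all genes) and 1 was higher. Of the 27 that DESeq2 tested, 4 were called lower (against 2.32% of all genes). Samm50, which inserts proteins into the outer membrane, had 74.0, 71.5 and 58.7 CPM in SCS 4 h and 41.6, 41.1 and 45.5 CPM in HOPE 1 h (-0.67 ± 0.13 SE). Chchd6, a subunit of the MICOS complex that holds cristae junctions, had 19.7, 23.1 and 15.4 CPM against 8.15, 6.64 and 10.8 CPM (-1.19 ± 0.27 SE), and its partner Chchd3 had a fold change of -0.55 ± 0.15 (SE). Of 33 antioxidant genes tested (median -0.18), 8 were lower at an unadjusted p under 0.05 (24.2%, against 6.84% of all genes) and 0 higher. All HOPE 1 h livers were lower at 11 (33.3%, against 10.3%) and higher at 1 (3.03%, against 8.97%). Neither tool called any. The cytosolic superoxide dismutase Sod1 had 591, 598 and 364 CPM in SCS 4 h against 337, 297 and 359 CPM in HOPE 1 h (-0.65 ± 0.23 SE). The mitochondrial Sod2 had 136, 138 and 113 CPM against 94.0, 107 and 109 CPM (-0.32 ± 0.12 SE). In apoptosis (31 tested, median 0.04, 0 called by either tool, 1 lower at an unadjusted p under 0.05, Casp6, whose groups overlapped), Bax (0.02 ± 0.26 SE) and Bcl2 (0.03 ± 0.66 SE) overlapped between groups. Bcl2 had few counts (13, 8 and 14 in SCS 4 h, 10, 9 and 20 in HOPE 1 h), so a difference could hardly be seen. The study measured Bax and Bcl-2 as proteins, and these values are RNA.

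Glycolysis as a list did not move to one side (26 genes, 13 of each sign, median 0.04), with Ldha and Gapdh called lower. Gapdh, a frequent reference gene, had 545, 460 and 491 CPM in SCS 4 h and 363, 313 and 288 CPM in HOPE 1 h (-0.63 ± 0.18 SE). The hypoxia response list had a median of 0.09 over 26 genes with 0 called by either tool and 1 at an unadjusted p under 0.05 in each direction, Ddit4 (1.32 ± 0.52 SE), a brake on mTOR, and the transferrin receptor Tfrc (-0.80 ± 0.36 SE). Immediate early genes had a median of 0.33 over 36 genes, 5 higher and 3 lower at an unadjusted p under 0.05. Fos, a subunit of AP-1, had 11.5, 11.5 and 19.0 CPM in SCS 4 h and 23.4, 26.7 and 75.5 CPM in HOPE 1 h (1.58 ± 0.59 SE), and Ccn2, connective tissue growth factor, had 7.68, 7.29 and 11.3 CPM against 11.6, 18.3 and 59.0 CPM (1.76 ± 0.58 SE). In both, HOPE 1 h liver 3 was far above its group, and for Ccn2 the closest livers of the 2 groups nearly met. Egr1 went the other way (-0.44 ± 0.18 SE). Of the serum transaminase genes, Got1 had 312, 435 and 271 CPM against 457, 934 and 512 CPM (0.90 ± 0.34 SE, edgeR adjusted p = 0.373) and Gpt had a fold change of -0.50 ± 0.29 (SE, edgeR adjusted p = 0.571). Among the 10 aminotransferase genes tested, only Got2 was called, lower in HOPE 1 h with no overlap (-0.44 ± 0.13 SE, DESeq2 adjusted p = 0.0119).

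Of the other hepatocyte functions, 5 lists had medians close to the 0.04 of all genes. Drug-metabolizing cytochromes P450 had a median of -0.02 over 30 genes, with 1 lower at an unadjusted p under 0.05 (Cyp2j4) and 0 called by either tool. Complement and coagulation had a median of 0.00 over 37 genes, 2 higher (C6 and Masp1) and 3 lower (Masp2, Mbl1 and F7) at an unadjusted p under 0.05, while neither tool called any. Cholesterol synthesis and uptake had a median of 0.00 over 28 genes with 1 called, Abcg8, an exporter of sterols into bile (-0.97 ± 0.26 SE). Acute phase proteins and protease inhibitors had a median of 0.06 over 25 genes with 1 called, the retinol carrier Rbp4 (-0.47 ± 0.17 SE). Gluconeogenesis and insulin response had a median of 0.00 over 21 genes with 1 called, Creb3l3, a membrane-bound transcription factor of fasting (-0.44 ± 0.14 SE). With 1 liver left out these medians took either sign, between -0.20 (gluconeogenesis without SCS 4 h liver 1) and 0.13 (acute phase without SCS 4 h liver 3).

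Markers of non-parenchymal cells moved with some of these groups. All 23 tested markers of sinusoidal endothelium had a positive fold change (median 0.47), 2 at an unadjusted p under 0.05 and 0 called, and their mean centred log2 level was -0.32, 0.25 and 0.93 in the HOPE 1 h livers against -0.32, -0.05 and 0.14 in SCS 4 h. Without HOPE 1 h liver 3 their median was 0.07. Lyve1, a defining receptor of that endothelium, had 87.2, 105 and 127 CPM in SCS 4 h and 87.2, 140 and 233 CPM in HOPE 1 h, and the groups overlapped. Kupffer cell and macrophage markers had a median of 0.21 (20 of 24 positive) that was -0.15 without that liver and 0.43 without HOPE 1 h liver 1, and stellate cell and fibroblast markers had a median of 0.45 (20 of 23 positive) that was 0.17 without it. The hepatocyte identity list had a median of -0.01 over 20 genes, or -0.13 without HOPE 1 h liver 1. The nuclear respiratory chain and fatty acid oxidation medians without HOPE 1 h liver 3 were between -0.51 and -0.35. The part of these markers in the interferon-stimulated and immediate early gene values was not tested.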

How the data were processed

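Total RNA of 12 livers was sequenced after SMARTer library preparation. Reads were aligned by the authors with Hisat2 v2.0.5 to Rnor_6.0, and transcripts were assembled with StringTie v1.3.3b. The authors deposited raw counts per gene for each liver, with counting tool and strand setting not given in the sources used here. FPKM values, also deposited and scaled by the authors for gene length and depth, were not used in tests. The authors' columns for pairs of groups (group means, log2 fold changes, p-values and adjusted p-values) played no part.

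Each column was assigned to its liver from the column name. Counts were filtered with filterByExpr, scaled by TMM and fitted in edgeR 4.0.16 (R 4.3.3) with the quasi-likelihood test on 4 groups of 3 livers (8 residual degrees of freedom) and Benjamini-Hochberg adjustment. DESeq2 1.42.0 and limma 3.58.1 (voom) were alternatives, and the fits were tested on simulated data. DESeq2 gave no adjusted p to 6106 genes. Named genes were the 12 largest differences in each direction among genes with an unadjusted p under 0.05, no overlap and at least 5 CPM in a group, the 8 lowest DESeq2 adjusted p in each direction, up to 4 members per list with the lowest p, genes the study measured, and genes called by edgeR where an alternative called 5 or fewer. The other genes named (copies, genes holding a promoter element, transporters, markers and further list members) were chosen after their values were seen, and some genes that the rule names are not reported here. The comparison, the gene lists and the tests were chosen with earlier results of these data known. Promoters were taken from RefSeq (GRCr8) by symbol. The 12 libraries held 15262961 to 18343167 counts.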

Additional observations from a re-analysis of the deposited data

How the results depend on the processing

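The count of genes called by edgeR was 0 as reported and with RLE scaling or mitochondrial genes removed before scaling. It was also 0 in edgeR with no filter, a robust prior or the gene length correction. In place of edgeR, voom with quality weights called 0 and DESeq2 called 204. The edgeR count was 5 with only the 6 livers fitted, and 1 (Hprt1) with HMP 1 h liver 1 and HOPE 1 h liver 3 both left out. With 1 liver left out in turn it was 0 to 1: LOC103694869 without SCS 4 h liver 2, Hprt1 without HMP 1 h liver 1 and RT1-DMb without HOPE 1 h liver 1. Genes at an unadjusted p under 0.05 numbered 2348 with voom and 1075 to 1891 with 1 liver left out. With the replicate number as a block the counts were 0 called and 1424 at an unadjusted p under 0.05. Deviations of same-numbered HOPE 1 h and SCS 4 h livers from their group means had correlations of 0.04, 0.04 and 0.01 across genes. These values were not set beside those of differently numbered livers. They cannot tell whether livers of the same number shared a day or batch. The length correction moved the list medians to -0.34 for complex I, -0.27 for complexes II and III and -0.12 for cytosolic ribosomal proteins, each still negative. With a liver left out, the fold change took either sign for Abcb11 (-0.22 to 0.28), Bax (-0.31 to 0.29), Bcl2 (-0.36 to 0.24), Alb, Atp5pb, Rbm39, Pink1 and Slc10a1, none of them called. The medians of glycolysis, autophagy and apoptosis took either sign, and those of hypoxia (0.04 to 0.23) and mitophagy (-0.08 to -0.03) moved by over 1.5 times. The length correction and the pair of livers left out were chosen after seeing the data. Recounting non-overlapping genes with a liver left out was not run, since fewer livers overlap less often. The median SE of a log2 fold change was 0.239 with 3 livers per group.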

Other observations

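The genes in this paragraph were chosen after their values were seen. Akr1c1 and Akr1c2, neighbouring aldo-keto reductases that metabolise steroids on chromosome 17, had higher levels in all HOPE 1 h livers than in all SCS 4 h livers, though neither was called: Akr1c2 had 6.84, 16.6 and 6.41 CPM in SCS 4 h and 28.3, 55.0 and 42.2 CPM in HOPE 1 h (2.07 ± 0.93 SE), and Akr1c1 had 3.76, 18.7 and 2.16 CPM against 23.5, 53.6 and 31.1 CPM (2.13 ± 1.10 SE, edgeR adjusted p = 0.506). WI 30 min liver 2 had 50.8 CPM of Akr1c2 and 55.6 CPM of Akr1c1, as high as the perfused livers. Gart, a purine synthesis enzyme, was called higher by DESeq2 as Cad was, with 17.3, 18.7 and 16.2 CPM against 28.2, 27.7 and 23.7 CPM (0.61 ± 0.16 SE). Slc25a22, a mitochondrial glutamate carrier, was called higher by DESeq2 (2.53 ± 0.70 SE) although HOPE 1 h liver 3 (5.25 CPM) lay with the stored livers and livers 1 and 2 had 36.8 and 44.0 CPM.

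The core clock list had a median of 0.31 over 22 genes, or 0.17 without HOPE 1 h liver 3 and 0.46 without HOPE 1 h liver 1. Cry1, a clock repressor, had 3.70, 3.55 and 3.86 CPM in SCS 4 h and 5.01, 10.5 and 7.55 CPM in HOPE 1 h (1.05 ± 0.29 SE), and the groups did not overlap; the hour of sampling is unknown here. The cold-inducible RNA-binding proteins Cirbp and Rbm3 had fold changes of 0.56 ± 0.29 and 0.42 ± 0.26 (SE), neither called, and their median of 0.49 was 0.25 without SCS 4 h liver 3. Globin and erythroid genes had a median of 0.24 over 10 genes, or -0.15 without SCS 4 h liver 1 and 0.48 without SCS 4 h liver 2, with 0 called by either tool and 0 at an unadjusted p under 0.05. Against WI 30 min their median difference on the log2 scale was -1.65 in SCS 4 h and -1.49 in HOPE 1 h.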
